A study of Mus musculus with 4 samples.

Results

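Small nucleolar RNA (snoRNA) genes were examined in leukemia-initiating cells (LICs) of the murine MLL-AF9 leukemia. Genes whose symbol begins with Snord, Snora or Scarna and whose FPKM (fragments scaled by gene length and by mapped reads) was above 0 in at least 2 of the 4 libraries were taken, which gave 111 of the 27179 genes with a value. Of these, 66 were box C/D genes (Snord), 37 were box H/ACA genes (Snora) and 8 were small Cajal body RNA genes (Scarna). The table listed 123 genes with these prefixes, of which 6 were at 0 in every library and 6 were above 0 in a single library. Just outside the rule lay Snord61, with an FPKM of 15.3 in WT replicate 1 and 0 elsewhere, and Snord92, with 1.04 in WT replicate 1 and 0 elsewhere. Just inside it lay Snora47, with an FPKM of 0.779 in WT replicate 2 and 0.897 in CD274-null replicate 1, and Snora19, with 1.54 in WT replicate 1 and 2.02 in CD274-null replicate 1. Members were thus chosen by symbol and by their FPKM being above 0, so their presence is not a finding.

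In this model Lin- fetal liver cells are infected with a retrovirus that carries the fusion oncogene MLL-AF9 and are transplanted into lethally irradiated C57BL/6 mice, and the LICs are enriched in the Mac-1+/c-Kit+ fraction of the leukemia cells. Bone marrow LICs labelled LSC were sorted by flow cytometry and sequenced in 4 libraries. WT replicates 1 and 2 are labelled with the wild type genotype and CD274-null replicates 1 and 2 as CD274 knockout (CD274-/-), all of strain C57BL/6 and aged 6 weeks. The comparison asks which genes differ in LICs that lack CD274, the immune checkpoint ligand also called PD-L1. The round of transplantation and the number of animals per library are not given in the sources used here, so the p-values measure the spread between these libraries, which may be technical. Infected cells differ in where the retrovirus integrates, and the methods name C57BL/6 mice as recipients, whose remaining host cells would carry Cd274.

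Cd274 was examined first. The WT libraries had a Cd274 FPKM of 2.80 and 0.945 and the CD274-null libraries one of 1.43 and 2.29, so the groups overlapped and every direction given here rests on the labels. The totals behind the FPKM values, inferred from these values, ran from 8843737 to 11568565 reads per library. The sort markers were present, Itgam (Mac-1) at an FPKM of 100.2 to 174 and Kit at 6.59 to 19.5. A list of 7 B and plasma cell genes, all above 0 in at least 1 library, gave a summed FPKM of 30.9 and 59.1 in WT against 311 and 400.5 in CD274-null. The higher values came from Ighm, Igkc and Jchain, which passed both thresholds below, while the B cell surface gene Ms4a1 stayed at or under 0.0976 in every library. Of 4 myeloid genes Mpo, which encodes myeloperoxidase, passed both thresholds as well, with an FPKM of 444 and 403 in WT against 1427 and 925 in CD274-null, and the 4 summed to 5450 and 4936 against 7455 and 4887. Of 6 erythroid genes 4 were above 0, and they summed to 54.8 in WT replicate 2 and to at most 4.44 in the other libraries. The part of such cells in the differences of snoRNA genes was not tested, and in sorted bulk RNA fewer cells of a type and less RNA per cell cannot be told apart.

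snoRNAs guide the chemical modification of other RNAs. Box C/D snoRNAs pair with ribosomal RNA and direct ribose methylation by fibrillarin, box H/ACA snoRNAs direct pseudouridylation by dyskerin, and small Cajal body RNAs guide the same modifications on spliceosomal RNAs. Most vertebrate snoRNAs are not transcribed on their own but are cut from introns of host genes, often genes of ribosomal proteins, translation factors or noncoding RNAs, while a few members such as Snord13 and Snord118 have promoters of their own. The libraries were made with a kit that selects polyadenylated RNA, and mature snoRNAs carry no stable poly(A) tail. A value therefore sums all fragments over the snoRNA's interval and does not separate the mature snoRNA from spliced or unspliced host RNA.

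Of the 111 members, 106 were paired with a host gene of the same strand with a value of its own, and these genes numbered 77. Snord89 lies in a transcript, Gm15832, whose name RefSeq lists as a synonym of Rnf149, and it was paired with Rnf149 although it lies outside the interval of that gene. Within the host, 53 members lay in an intron of every annotated transcript, 48 overlapped an exon of a transcript without coding sequence and 3 overlapped an exon of a protein-coding transcript. The intervals behind the FPKM ran from 28 to 275 bases, with a median of 87.

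The sequences below belong to the members on which the results turn, taken from GENCODE M21 transcripts of GRCm38 and written 5′ to 3′ on the transcribed strand. These transcripts are often a few bases longer than the RefSeq intervals behind the FPKM. Capitals mark the boxes found by searching the transcribed strand alone: box C (ATGATGA or GTGATGA) within the first 20 bases, box D (CTGA) within the last 20 bases, the H box (ANANNA) between 30% and 65% of the length and the ACA box (ACA) within the last 8 bases. The opening set holds the 4 members inside the ribosomal protein genes Rpl3 and Rps12, all of which passed both thresholds given below. Snord83b (chr15:80078498-80078591) and Snord43 (chr15:80082847-80082954) lie in introns of Rpl3 on the minus strand. Snord100 (chr10:23785750-23785823) and Snora33 (chr10:23785347-23785475) lie on the minus strand in Rps12, within exons of its transcripts without coding sequence. No box C letters lie within the first 20 bases of the Snord43 transcript, which is longer than its RefSeq interval.
Snord83b: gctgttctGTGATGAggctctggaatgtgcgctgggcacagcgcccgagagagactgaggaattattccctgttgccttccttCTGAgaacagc
Snord43: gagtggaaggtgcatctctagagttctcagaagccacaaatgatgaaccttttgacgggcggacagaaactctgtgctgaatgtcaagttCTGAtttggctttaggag
Snord100: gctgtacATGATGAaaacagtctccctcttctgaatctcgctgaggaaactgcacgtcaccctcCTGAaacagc
Snora33: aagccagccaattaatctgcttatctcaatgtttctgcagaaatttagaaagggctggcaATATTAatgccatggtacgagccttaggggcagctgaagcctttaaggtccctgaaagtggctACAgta

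The second set holds Snord47 of Gas5 (chr1:161038082-161038158, plus strand), the most strongly read member that passed both thresholds in reads as well as FPKM, and the 2 members with at least 100 reads that passed as lower, Snord104 (chr11:106500993-106501062, plus strand, no host gene in the table) and Snora78 (chr17:24719676-24719803, minus strand, in an intron of Snhg9).
Snord47: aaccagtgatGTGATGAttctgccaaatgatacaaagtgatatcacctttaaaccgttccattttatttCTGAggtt
Snord104: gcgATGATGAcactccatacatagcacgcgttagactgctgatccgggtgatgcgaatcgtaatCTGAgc
Snora78: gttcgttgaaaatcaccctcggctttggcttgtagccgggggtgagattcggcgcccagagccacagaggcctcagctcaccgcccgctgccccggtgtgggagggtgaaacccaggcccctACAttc

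The third set holds families within 1 host gene, among them the near copies Snord14c with Snord14d and Snord88a with Snord88c. Snord14c (chr9:40803583-40803668), Snord14d (chr9:40803995-40804080) and Snord14e (chr9:40804748-40804837) lie on the plus strand in Hspa8. Snord88a (chr7:44250135-44250224) and Snord88c (chr7:44249852-44249941) lie on the plus strand in 2410002F23Rik.
Snord14c: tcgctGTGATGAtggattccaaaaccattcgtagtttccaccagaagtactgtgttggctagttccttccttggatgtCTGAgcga
Snord14d: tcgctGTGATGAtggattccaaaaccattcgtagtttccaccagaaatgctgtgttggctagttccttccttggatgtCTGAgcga
Snord14e: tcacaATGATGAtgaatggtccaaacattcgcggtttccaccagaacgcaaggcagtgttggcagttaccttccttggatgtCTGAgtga
Snord88a: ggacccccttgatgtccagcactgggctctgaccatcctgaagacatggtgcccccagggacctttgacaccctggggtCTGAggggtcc
Snord88c: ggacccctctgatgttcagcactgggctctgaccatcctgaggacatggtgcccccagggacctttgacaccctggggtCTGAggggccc

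Snord14c and Snord14d were identical at 97.7% of aligned bases with 2 mismatches, and Snord88a and Snord88c at 94.4% with 5 mismatches, while Snord14e was identical to each of the former at 82.2%. Other near copies were Snord1b and Snord1c (97.4%) and Snora73a and Snora73b (96.6%), and of all pairs of members with a like name only the last shared runs of 50 bases, 11 in all. Over all box C/D members, 64 of 66 held the box D letters, against 8.66% of promoter windows of 80 bases from RefSeq, and 38 held one of the 2 box C spellings, against 0.265% of those windows. Among the H/ACA members, 35 of 37 held the ACA box, against 9.07% of promoter windows of 130 bases, and 35 held the H box, against 47.3%. These matches describe the members' sequence and were not related to their change.

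The reads were thinly spread. All members together took 2578 and 1821 reads in WT against 2619 and 3638 in CD274-null, or 223 and 179 per 1000000 reads against 296 and 365. Their summed FPKM was 2387 and 1943 in WT against 3293 and 4109 in CD274-null. Both CD274-null libraries thus lay above both WT libraries in share of reads and in summed FPKM. The median member had an FPKM of 10.8 and 7.17 in WT against 12.6 and 14.3 in CD274-null. By box class, the C/D members held most of the signal, with a summed FPKM of 1545 and 1292 in WT against 2265 and 2883 in CD274-null. The H/ACA members summed to 837 and 644 in WT and to 1012 and 1212 in CD274-null. The small Cajal body RNA members were near the limit of detection, with 9 and 7 reads in WT and 15 and 11 in CD274-null over all 8.

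limma was fitted to log2(FPKM + 0.5) of all 13230 genes whose FPKM averaged 0.5 or more, and 107 of them were members. A gene passed both thresholds if its unadjusted p was under 0.01 and it differed by more than 1.5-fold. Among the 93 members above 0 in all 4 libraries, 19 passed both thresholds, 17 higher and 2 lower in the libraries labelled CD274-null. Among all genes above 0 in all 4 libraries, 3.34% passed. Over all 107 tested members 23 passed, 20 higher and 3 lower, against 3.63% of all tested genes (2.39% higher and 1.24% lower). The median log2 fold change was 0.54 over the 93 members and 0.56 over the 107, against 0.01 over all tested genes, and 86 members were higher and 21 lower. Both CD274-null values lay above both WT values for 54 members and below for 8, against 25.6% and 21.8% of all tested genes. After Benjamini-Hochberg adjustment over all genes 1 member, Snord83b, had an adjusted p under 0.05, against 0.0756% of all tested genes. That adjusted p stayed under 0.05 in 3 of 16 alternative settings, in which it ran from 0.0299 to 0.517.

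**Figure D1:**
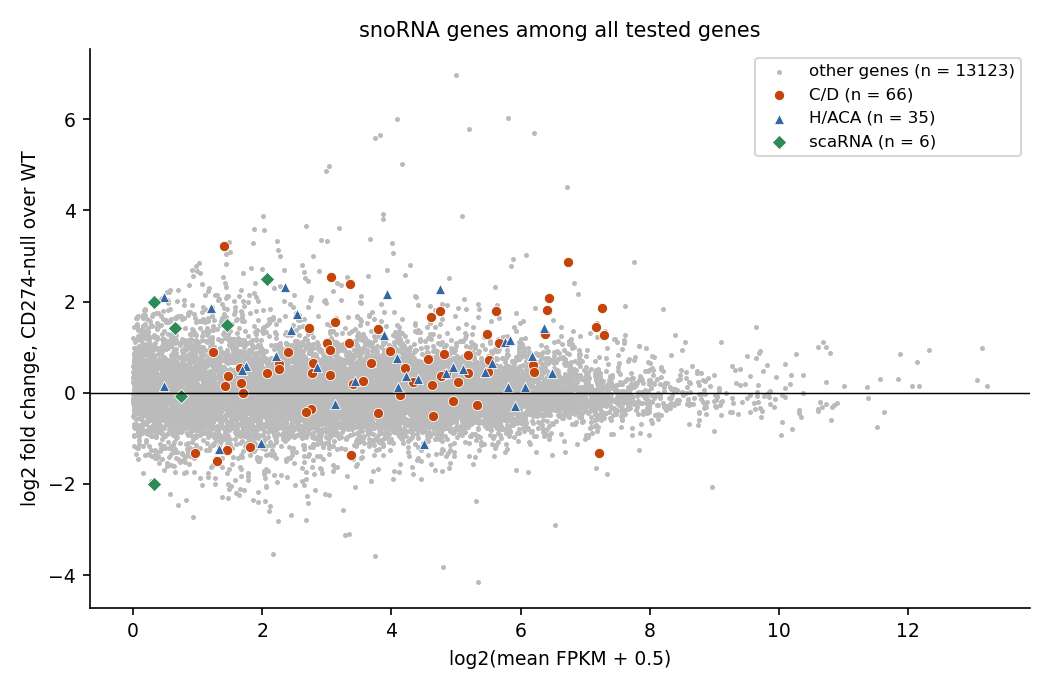
log2 fold change (CD274-null over WT, vertical axis) against log2 of the mean FPKM + 0.5 (horizontal axis) for each tested gene, grey for other genes and coloured by box class for the 107 tested members. Most members lie above the zero line, with 86 higher and 21 lower, and the spread of all genes widens to the left where levels are low.

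The call depended on how the spread was estimated and on single libraries. limma's voom on the whole reads recovered from the FPKM called 3 members, Snord47, Snora33 and Snord83b, which is 2.80% of the 107 and below the 3.41% of all genes it called, while the median log2 fold change was 0.57. A linear model without moderation also called 3 members, 2.80% against 1.28% of all genes. Without CD274-null replicate 1 the count was 11 (10.3% against 1.78% of all genes) and without CD274-null replicate 2 it was 8 (7.48% against 1.11%). After quantile normalization 20 members passed (18.7% against 3.5%), 15 higher and 5 lower.

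Other short genes give a second reference. Among 217 other tested genes with an annotated interval of at most 300 bases, most of them microRNA genes, 17.1% passed both thresholds (11.5% higher) and the median log2 fold change was 0.07. Without immunoglobulin and T cell receptor segments, 183 remained, of which 13.1% passed, 12 higher (6.56%) and 12 lower, and the median was -0.23. The share of members that passed, 21.5%, was therefore nearer to that of other short genes than to that of all genes, while the genes that passed were divided into 20 higher and 3 lower in the members and into 25 higher and 12 lower in the 217 other short genes. The difference between these sets was not tested. Replicates of the members differed by a median of 0.69 on the log2 scale in WT and 0.42 in CD274-null, which was more than the 0.34 and 0.28 over all tested genes and less than the 0.75 and 0.89 of the 217 other short genes. WT replicate 2 lay below WT replicate 1 for 75 of the 107 members.

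Among the 33 members with at least 100 reads over the 4 libraries, 10 passed both thresholds (30.3%), 8 higher and 2 lower. Beside this, 3.63% of all tested genes and 17.1% of the other short genes passed, whatever their reads. The share among all genes with at least 100 reads was not taken. Of the members that passed, 4 had at most 3 reads in any library. Snord11 had 0 and 0 reads in WT and 3 and 2 in CD274-null, Snora15 had 0 and 0 against 1 and 3, Scarna10 had 0 and 0 against 1 and 1, and Scarna2 had 1 and 1 against 0 and 0. Each of these genes was above 0 in 1 group alone, at or under the limit of 3 reads that a count of 0 allows, so no fold is given for them.

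**Figure D2:**
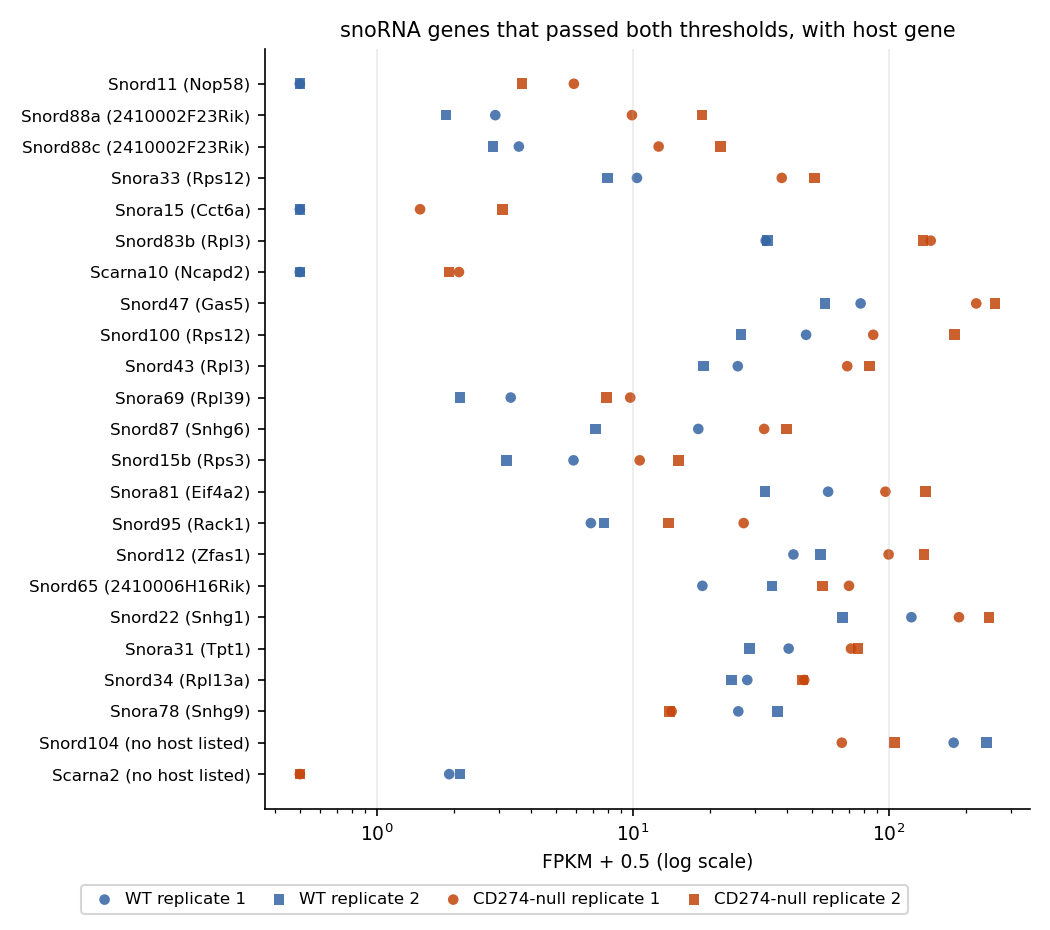
FPKM + 0.5 on a log axis for the 23 members that passed both thresholds, 1 row per gene with its host gene in brackets, blue for WT and orange for CD274-null, circles for replicate 1 and squares for replicate 2. The bottom 3 rows are the members that were lower in CD274-null, and in every row the 2 groups do not overlap.

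The box C/D class guides ribose methylation. Of its 66 tested members 15 passed both thresholds, 14 higher and 1 lower (22.7%), and their log2 fold changes had a median of 0.58. Of the 35 tested H/ACA members 6 passed, 5 higher and 1 lower (17.1%), with a median of 0.56. These counts include Snord11 and Snora15, which were above 0 in 1 group alone. Of all tested genes 3.63% passed, and of the 217 other short genes 17.1%, the same as the H/ACA share. The C/D and H/ACA medians were close to each other, and their difference was not tested. In the small Cajal body RNA class 6 of 8 members were tested, 2 passed, 1 in each direction, both with at most 1 read in any library, and the median of 1.45 rests on at most 6 reads per member and library. The most abundant of them, Scarna9, had an FPKM of 0 and 2.34 in WT against 5.38 and 7.17 in CD274-null. Scarna3a had 0 and 2.50 against 4.79 and 1.70. Scarna6 had 2.09 and 0.396 against 1.82 and 0.405. Scarna9 was separated between the groups, the other 2 overlapped, and none of the 3 passed.

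In the ribosomal protein genes Rpl3 and Rps12 all 4 members passed both thresholds. Snord83b, an orphan snoRNA with no established modification target, had an FPKM of 32.6 and 33.2 in WT against 145 and 136 in CD274-null, from 29, 26, 99 and 104 reads. The group values were 32.9 ± 0.430 and 140.5 ± 6.89 (SD, n = 2), so both CD274-null libraries lay far above the WT libraries and the replicates were close. It differed by 2.08 on the log2 scale, with a standard error of 0.20 and an adjusted p of 0.0415 in limma, and it passed both unadjusted thresholds in all 16 alternative settings run. Its neighbour Snord43, which guides methylation of small-subunit rRNA, had 25.2 and 18.4 in WT against 68.3 and 83.7 in CD274-null, from 14, 9, 29 and 40 reads (log2 fold change 1.79, adjusted p = 0.137 from limma). Rpl3, which encodes a core protein of the large subunit, had an FPKM of 110.4 and 108 in WT against 153 and 144 in CD274-null. The host was higher too, by 0.44 on the log2 scale (unadjusted p = 0.0686 from limma), so both members differed by more than their host did.

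In Rps12, which encodes a protein of the small subunit, Snora33 had an FPKM of 9.88 and 7.48 in WT against 37.7 and 50.7 in CD274-null, from 12, 8, 35 and 53 reads. The log2 difference was 2.28, with a standard error of 0.27 and an adjusted p of 0.0979 in limma. Snord100, from the same transcription unit, had 47.0 and 26 against 86.5 and 180, with a wide spread between the CD274-null libraries (log2 fold change 1.82, unadjusted p = 0.00493, and 1.29 to 2.35 when single libraries were left out). It passed in 6 of 16 alternative settings and Snora33 in 15. Rps12 itself had 33.4 and 22.0 in WT against 45.6 and 48.3 in CD274-null, 0.78 higher on the log2 scale. Snord100 was above its host in FPKM in every library, and Snora33 was above it in CD274-null replicate 2 alone.

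Other members in genes of ribosomal proteins and of Rack1 passed as well. Snord34, which guides methylation of large-subunit rRNA, had 27.5 and 23.8 in WT against 46.3 and 45.6 in CD274-null, beside a host, Rpl13a, at 665 and 817 against 697 and 585. Snord34 passed in 9 of 16 alternative settings. The other Rpl13a members did not pass. Snord32a had an FPKM of 17.1 and 15.8 against 25.1 and 9.92. Snord33 had 34.8 and 15.6 against 31.7 and 30.6. Snord35a had 25.3 and 14.3 against 28.0 and 42.9. The log2 fold changes of Snord34, Snord32a, Snord33 and Snord35a, cut from 1 host, were thus 0.83, -0.05, 0.41 and 0.84, and the middle pair overlapped between groups. Snord15b of Rps3 had 5.37 and 2.71 against 10.1 and 14.5. Snora69 of Rpl39 had 2.83 and 1.61 against 9.27 and 7.41, from at most 10 reads. Snord95 of Rack1, a scaffold protein of the small subunit, had 6.36 and 7.22 against 26.6 and 13.3. All 3 members were separated between the groups, and Snord15b passed in 6, Snora69 in 12 and Snord95 in 9 of 16 alternative settings, while their hosts had log2 fold changes of -0.33 for Rps3, -0.22 for Rpl39 and -0.35 for Rack1. The members of Rpl23a had 2 to 9 reads a library. Snord42a had an FPKM of 3.84 and 8.73 against 12.6 and 13.4. Snord42b had 6.29 and 3.57 against 6.17 and 14.6. Snord4a had 4.94 and 4.21 against 8.08 and 12.9. None of them passed, and Snord42b overlapped. An exon of Tlcd1 lies over Snord42a and Snord4a on the other strand, and since the strand setting is not stated their reads cannot be told apart. Snora70 of Rpl10 and Snora65 of Rpl12, among the most abundant H/ACA members, did not pass. Snora70 had 79.7 and 70.8 against 92.0 and 112. Snora65 had 68.9 and 38.3 against 83.4 and 97.9. Both were separated between the groups by a small margin.

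Noncoding host genes, whose spliced RNA encodes no protein of known use, gave members in both directions. Snord47, a guide for the large-subunit rRNA, had an FPKM of 77.1 and 55.9 in WT against 219 and 260 in CD274-null, from 58, 37, 126 and 168 reads. The log2 difference was 1.85, with a standard error of 0.25 and an adjusted p of 0.128 in limma. Its host Gas5, a growth arrest transcript, had 135 and 93.6 against 231 and 261 and passed both thresholds as well (log2 fold change 1.12, unadjusted p = 0.00423). Snord22 of Snhg1, needed for processing of small-subunit rRNA in vertebrates, was the most abundant member on average, with 122 and 65.5 in WT against 188 and 246 in CD274-null. It passed, though in only 5 of 16 alternative settings, with a log2 fold change of 0.81 to 1.71 when single libraries were left out. A further 3 members of noncoding hosts passed. Snord12 of Zfas1 had 41.9 and 53.6 against 99.4 and 137. Snord87 of Snhg6 had 17.5 and 6.64 against 32.1 and 39.4. Snord65 of 2410006H16Rik had 18.2 and 34.5 against 69.4 and 54.6. Snord12 passed in 12 of 16 alternative settings, Snord65 in 8 and Snord87 in 6, the latter with a log2 fold change of 1.0 to 2.34 when single libraries were left out. Zfas1 was 0.77 higher on the log2 scale, whereas Snhg6 and 2410006H16Rik had log2 fold changes of -0.08 and 0.25. Snord49a, also of 2410006H16Rik, had 36.2 and 31.7 against 51.1 and 61.5. Snord49b of that gene had 48.0 and 28.1 against 43.1 and 59.0. Neither passed, and Snord49b overlapped between the groups.

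Snora78 was lower together with its host. It had an FPKM of 25.3 and 36.3 in WT against 13.7 and 13.4 in CD274-null, from 46, 58, 19 and 21 reads (log2 fold change -1.13, standard error 0.26, unadjusted p = 0.00409 from limma). Snora78 passed in 11 of 16 alternative settings. Snhg9 had 9.92 and 14.5 against 3.09 and 7.68, a log2 fold change of -1.21 (unadjusted p = 0.0348). Snord52, of the noncoding gene 1110038B12Rik, differed most by size among the members with over 100 reads but was carried by 1 library. It had 23.4 and 13.3 in WT against 51.7 and 334 in CD274-null, its host had 65.9 and 64.9 against 105 and 345, and it did not pass (log2 fold change 2.86, unadjusted p = 0.0118). Both genes were thus far higher in CD274-null replicate 2 than in CD274-null replicate 1. Snhg12 held 4 members, none of which passed. Snord99 had 24.7 and 38.6 against 52.5 and 84.3 and was separated between the groups. Snora16a had 19.7 and 12.3 against 21.6 and 19.2. Snora44 had 13.3 and 24.3 against 18.4 and 27.5. Snora61 had 57.2 and 49.1 against 52.9 and 63.2. These H/ACA members overlapped, while Snhg12 itself had a log2 fold change of 0.76. Snord1a, Snord1b and Snord1c of Snhg16 had 17, 8 and 4 reads in WT replicate 1 but 2, 2 and 1 in WT replicate 2, and overlapped between the groups.

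Members in other protein-coding genes and translation factor genes followed their host to different degrees. Snora81 of Eif4a2, which encodes a helicase of translation initiation, had an FPKM of 57.5 and 32.3 in WT against 96.5 and 139 in CD274-null, from 109, 54, 140 and 227 reads (log2 fold change 1.42, unadjusted p = 0.00518), and passed in 7 of 16 alternative settings. Snord2 of the same gene had 116 and 47.7 against 198 and 211 (log2 fold change 1.45, unadjusted p = 0.0115) and was not called. Eif4a2 had 117 and 63.3 against 186 and 262 and passed both thresholds with a log2 fold change of 1.36, so the 3 log2 fold changes lay between 1.36 and 1.45. Snora31 of Tpt1 had 40.1 and 28.1 against 70.7 and 75.3 while Tpt1 had 269 and 294 against 222 and 211, so the groups were separated in opposite directions. Snora31 passed in 10 of 16 alternative settings. Snord88a and Snord88c of 2410002F23Rik had log2 fold changes of 2.55 and 2.38, from 2, 1, 6 and 13 reads and from 3, 2, 9 and 18 reads, while their host had 38.8 and 23.3 against 36.5 and 39.7.

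Hspa8, which encodes a constitutive heat shock chaperone, carries Snord14c, Snord14d and the less similar Snord14e, which take part in small-subunit rRNA processing. Snord14c had an FPKM of 14.9 and 46.3 in WT against 19.5 and 17.3 in CD274-null. Snord14d had 18.9 and 48.5 against 22.1 and 32.3. Snord14e had 28.5 and 60.4 against 32.3 and 36.4. All 3 were highest in WT replicate 2, where Hspa8 was lowest (218 and 132 against 167 and 318). The groups overlapped, and Snord14a in Rps13 had no such peak, with 35.8 and 23.7 against 36.4 and 32.3.

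**Figure D3:**
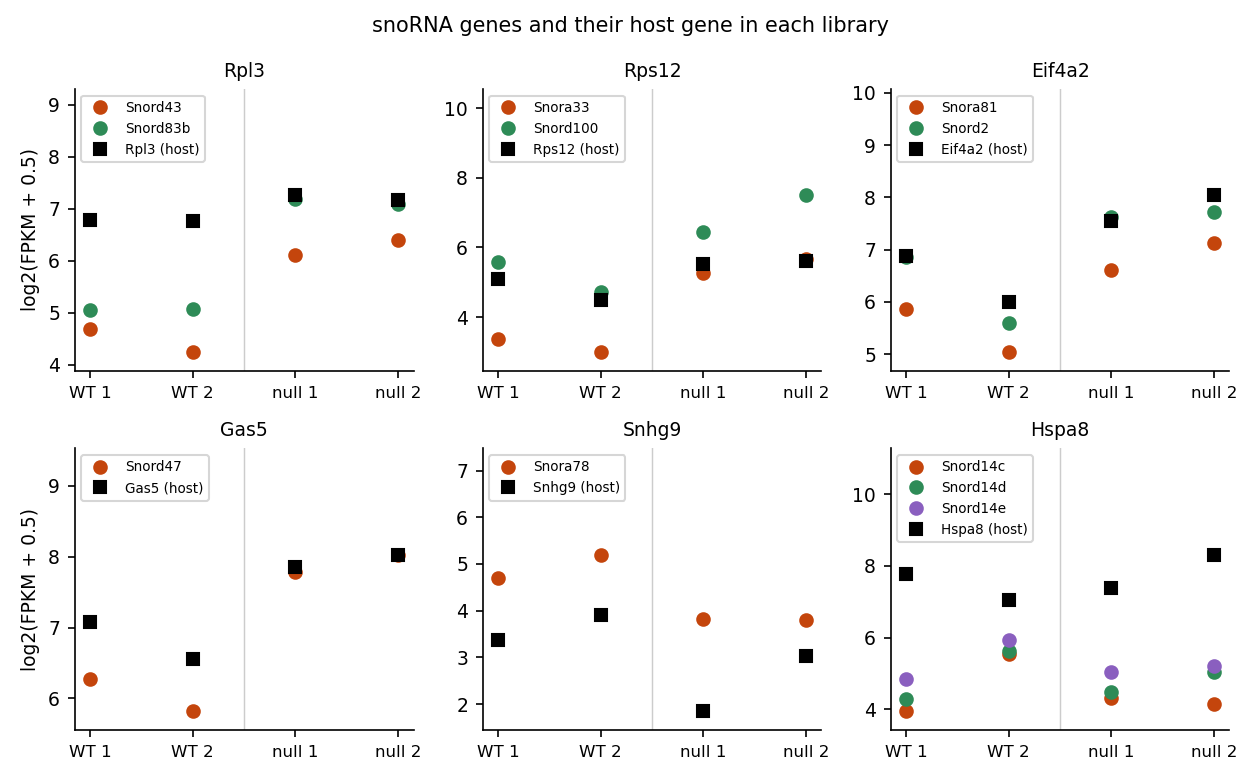
log2(FPKM + 0.5) of members (circles) and of their host gene (black squares) in each of the 4 libraries for 6 host genes, 1 panel each, with a grey line between WT and CD274-null and a vertical scale of its own in each panel. The members of Rpl3 and Rps12 lie closer to their host or above it in CD274-null, those of Eif4a2 keep their distance from it, and those of Hspa8 peak in WT replicate 2 where the host is lowest.

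The table held no host gene for 5 members, and 4 of them were lower in CD274-null (median log2 fold change -1.33). Among these was Scarna2, with 1 and 1 reads in WT and 0 and 0 in CD274-null, for which no fold is given. The remaining member, Snora74a, was higher, with an FPKM of 1.31 and 0 in WT against 2.86 and 3.04 in CD274-null. Snord104, a guide for large-subunit rRNA, had an FPKM of 179 and 241 in WT against 65.1 and 105 in CD274-null, from 151, 179, 42 and 76 reads. It was the most abundant member in the WT libraries and the groups did not overlap (log2 fold change -1.33, standard error 0.30, unadjusted p = 0.00418 from limma). Snord104 passed in 10 of 16 alternative settings. Snord118, which acts in large-subunit rRNA maturation and has its own promoter, had 1.89 and 7.17 against 0.825 and 2.20. Snord13, which acts in small-subunit rRNA maturation and is also transcribed on its own, had 1.76 and 4.01 against 0 and 2.05. Both overlapped between groups and rested on at most 10 reads.

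Each member was then set beside its host gene, which asks whether members and hosts differed by the same amount. For 102 pairs with both genes tested, from 73 hosts, the median log2 fold change was 0.60 for the snoRNA genes and -0.06 for the hosts. The member's change was above its host's in 84 pairs, with a median difference of 0.62. These pairs include Snord11, Snora15 and Scarna10, which were above 0 in CD274-null alone. The 51 pairs given next and the medians over the 102 pairs include them too. In log2((snoRNA FPKM + 0.5)/(host FPKM + 0.5)), both CD274-null libraries lay above both WT libraries for 51 pairs and below for 7, and 44 overlapped. In FPKM alone 25.6% and 21.8% of all tested genes were separated in these directions, and no share was taken for ratios of other gene pairs. The median log2 ratio of member to host was -2.51 and -2.41 in WT against -2.01 and -1.71 in CD274-null. The member was above its host in FPKM in 9 and 7 pairs in WT and in 13 and 13 in CD274-null. Of the 77 host genes, Gas5 and Eif4a2 passed both thresholds, 2.60% against 3.63% of all tested genes.

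**Figure D4:**
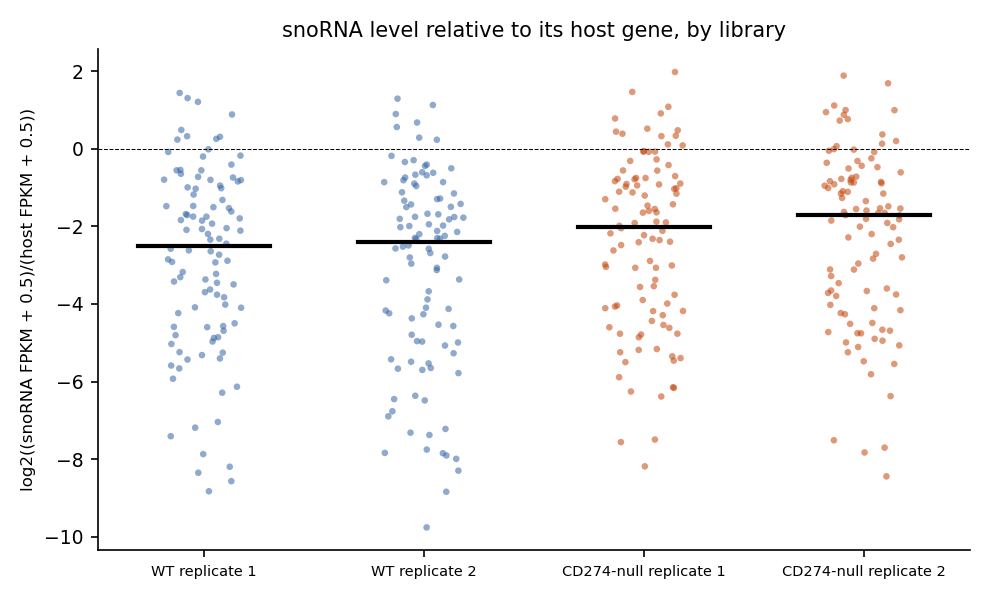
log2 of the snoRNA FPKM + 0.5 over the host FPKM + 0.5 for each of the 102 pairs, 1 column of points per library (spread sideways at random), with a black bar at the median. The medians are -2.51 and -2.41 in WT against -2.01 and -1.71 in CD274-null, while single pairs span most of the axis in each library.

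The gap between member and host was then taken by kind of host. In the 35 pairs with ribosomal protein genes, from 24 hosts with Rack1 counted among them here and in the values by kind of host, the median log2 fold change was 0.77 for the members and -0.09 for the hosts, the median difference within a pair was 0.79, and 34 of 35 members had a fold change above that of their host. In the 24 pairs with a noncoding host the medians were 0.45 and 0.15, with a median difference of 0.32. In the 36 pairs with other protein-coding hosts they were 0.58 and -0.04, with a median difference of 0.67, and in the 7 pairs with translation factor genes 0.90 and -0.20, with one of 0.64. The 36 pairs include Snord11, Snora15 and Scarna10, which were above 0 in CD274-null alone. The difference between host groups was not tested. Ribosomal protein genes have many near-identical pseudogenes, so their FPKM depends on how reads with several matches were counted and is uncertain. Pairs that share a host are not independent.

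**Figure D5:**
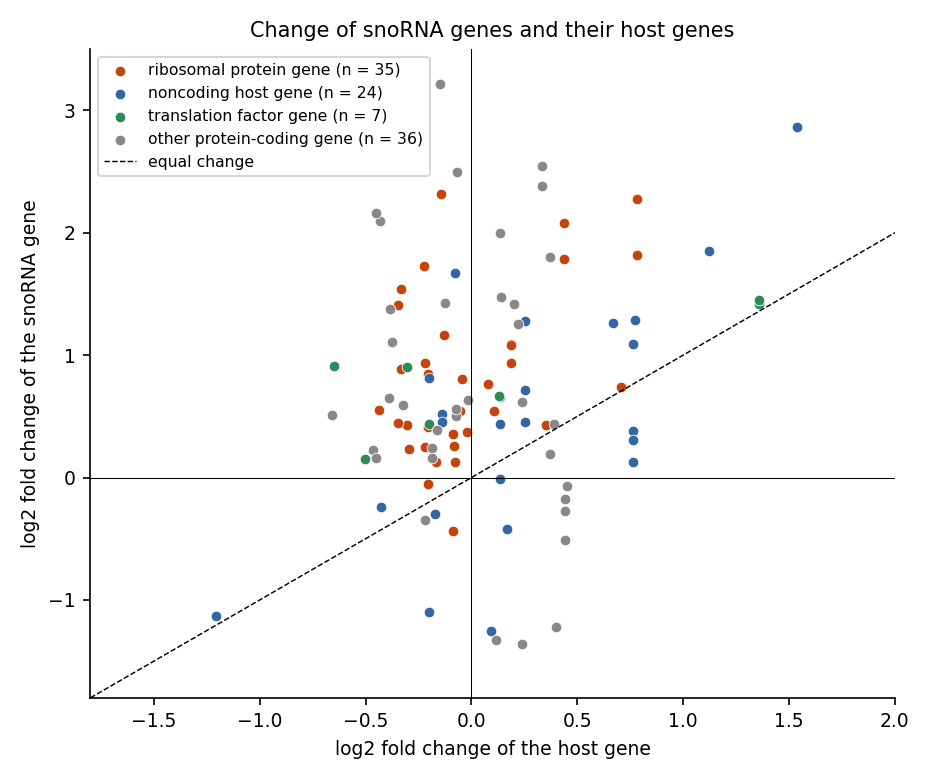
log2 fold change of each snoRNA gene (vertical axis) against that of its host gene (horizontal axis) for the 102 pairs, coloured by kind of host, with a dashed line where both are equal. Of the points 84 lie above the dashed line, among them 34 of the 35 with a ribosomal protein host.

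Across the pairs, the level of a member was loosely related to that of its host. Spearman's rho of their FPKM was 0.25 and 0.26 in WT against 0.36 and 0.45 in CD274-null, over 102 pairs that share libraries and in part hosts. Within noncoding hosts it was 0.71 and 0.69 in WT against 0.84 and 0.91 in CD274-null, over 24 pairs, and within ribosomal protein hosts -0.03 and -0.02 in WT against -0.03 and -0.14 in CD274-null, over 35 pairs. A member that overlaps an exon of its host can share reads with it, and the part of such reads in these values was not tested. The log2 fold changes of member and host had a rho of 0.14 over all pairs, of 0.54 within noncoding hosts, 0.23 within ribosomal protein hosts and -0.22 within the 36 pairs with other protein-coding hosts. Members in 1 host could also part. In Nop56, Snord57 had 72.7 and 43.7 against 77.2 and 97.2 and Snord110 had 11.7 and 16.6 against 7.67 and 3.40, log2 fold changes of 0.62 and -1.36 beside 0.24 for Nop56 itself.

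The genes for the proteins that build and process snoRNA particles were examined as well. Of a list of 30 such genes all were tested, 8 were higher and 22 lower in CD274-null, the median log2 fold change was -0.16, and 0 passed both thresholds, against 3.63% of all tested genes. The exonuclease gene Xrn2 alone had an unadjusted p under 0.05 (log2 fold change -0.55), which makes 1 gene of 30 against 13.7% of all tested genes, and voom on recovered reads called 0 as well. The box C/D core gene Fbl, which encodes fibrillarin, had a log2 fold change of -0.33, Nop58 of -0.15 and Nop56 of 0.24. In the H/ACA core, Dkc1, which encodes dyskerin, had -0.15 and Nop10 0.33. The debranching enzyme gene Dbr1, which opens the intron lariats from which snoRNAs are cut, had 0.18.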

How the data were processed

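Sorted LICs were profiled by RNA-sequencing in 4 libraries. For each gene the authors deposited an FPKM in every library, after TruSeq v2 libraries were sequenced on a HiSeq platform and aligned to GRCm38; the submitters' processing notes name CASAVA 1.8.2 and TopHat2 2.0.12. The program, gene lengths and strand setting behind FPKM, and the treatment of reads with several matches, are not given in the sources used here. Sample columns left unassigned numbered 0. Of 27179 genes, 25275 matched a RefSeq symbol.

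On the premise that whole reads were counted, read counts were recovered from the FPKM steps. For 17081 of 17083 genes above 0 in at least 2 libraries every value came out whole within 0.05 reads, all 111 members included. Outside the members many lengths were tried per gene, so for genes above 0 in only 2 libraries such a fit says little. For the members the RefSeq interval was taken as the length, and the values came out whole with it. The totals behind the FPKM, inferred from these counts and annotated gene lengths, were 8843737 to 11568565 reads per library. No source states them, and the paper reports more reads generated per sample.

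Linear models with moderated variance and a mean-variance trend were fitted to log2(FPKM + 0.5) in limma 3.58.1 (R 4.3.3), with group as the only term and Benjamini-Hochberg adjustment. The 13230 genes whose FPKM averaged 0.5 or more entered. Fold changes are on this scale, which understates those of low genes. Calls took an unadjusted p under 0.01 and a fold above 1.5. Host genes were the smallest same-strand genes of GENCODE M21 (or, for 2 members, of RefSeq) that contain the member, matched to the table by symbol or synonym. Scripts ran in Python 3.11.15 and the fit was tested on simulated data. Named were all members that passed, the 3 most abundant of each class, the 5 with the largest change, all members of hosts with 3 or more, and their hosts. Other genes were named after their values were seen. The members and lists were chosen with earlier results of these data known. A gene of the marker lists is not reported here by name. Alternatives were other pseudocounts, filters, scalings and variance models, a replicate block, voom on recovered reads, each library left out, and a GC correction.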

Additional observations from a re-analysis of the deposited data

How the results depend on the processing

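The number of members that passed both thresholds was 23 in the reported fit. It was 23 with a pseudocount of 1 or 0.1 (21.5% against 3.54% and 3.64% of all genes), 20 of 76 tested members with a mean FPKM of at least 5 (26.3% against 3.87%), 18 with no filter (16.2% against 2.58%), 20 with equal quantiles, 17 with equal medians (15.9% against 3.38%), 16 without trend (15% against 3.35%), 3 without moderation of the variance and 3 with voom on recovered reads. It ran from 8 to 33 with single libraries left out, with 33 without WT replicate 1 (30.8% against 3.47% of all genes) and 16 without WT replicate 2 (15% against 4.79%). The adjusted p of Snord83b was 0.185 with no filter, 0.0696 with a mean FPKM of at least 5, 0.274 with voom and 0.0872 with the GC correction. Over all genes, 480 passed in the reported fit, 170 without moderation, 147 without CD274-null replicate 2 and 235 without CD274-null replicate 1. The replicate numbers of the labels do not pair the samples by any source, and same-numbered libraries did not deviate together (correlation -0.015). With the replicate number as a block, 31 members passed (29% against 3.98% of all genes), the 23 among them. With the GC correction, chosen after seeing the data, 20 passed (18.9% against 3.08%), and 23 with the GC correction and the replicate block (21.7% against 2.93%). The median log2 fold change of the members ran from 0.41 to 0.89 and the median difference from the host from 0.46 to 0.86 with single libraries left out, while 0 of the listed snoRNP protein genes passed in any setting. The sign changed with voom for Snord1c (0.023), and with the GC correction, with or without the block, for Snord1c (0.099), Snora61 (-0.11) and the hosts Cep295 (0.026), Ncapd2 (-0.012) and Snhg6 (0.030). With single libraries left out the log2 fold change spanned 0 for the members Scarna6 (-0.84 to 0.69), Snora44 (-0.11 to 0.74), Snora61 (-0.0025 to 0.25), Snord14c (-1.31 to 0.29), Snord14d (-0.85 to 0.49), Snord14e (-0.81 to 0.26), Snord1a (-0.69 to 2.0), Snord1b (-0.38 to 1.26), Snord1c (-0.76 to 0.73), Snord32a (-0.70 to 0.60) and Snord33 (-0.16 to 0.98) and for the hosts 2410002F23Rik (-0.029 to 0.70), Cep295 (-0.32 to 0.18), Hspa8 (-0.022 to 0.91), Nop58 (-0.59 to 0.29), Rpl12 (-0.11 to 0.020), Rpl39 (-0.48 to 0.035), Snhg16 (-0.17 to 0.43) and Snhg6 (-0.30 to 0.14). The causes were not tested. Depth limits the members with at most 20 reads in all, which numbered 39.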
